A study of Danio rerio with 9 samples.

Results

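Zebrafish replace heart valve tissue after its cells have been ablated, and the change between the early response and the tissue that follows was read here by comparing atrioventricular valve tissue 21 d after ablation with the same tissue 48 h after it. All genes with a normalised read count of 10 or more in at least 3 of the 6 libraries were kept, which left 16725 of the 21692 genes in the table. At the edge of that rule, 1242 kept genes reached the minimum in exactly 3 libraries, with a median level of 16.5, and 1463 genes left out reached it in exactly 2 libraries, with a median level of 9.17. Only the 48 h libraries carried 145 of the kept genes over the minimum and only the 21 d libraries carried 119, so these genes differed by construction.

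Both groups came from fish that had stood for 6 h in 2.5 mM metronidazole, a drug that becomes toxic in cells that make a bacterial nitroreductase. The line, the promoter that drives the enzyme, the age and the sex of the fish are not given in the sources used here. Tissue was cut by laser from frozen heart sections, and each library was made from the polyadenylated RNA of 2 hearts. There were 3 libraries at 48 h, 3 at 21 d and 3 from uninjured fish, for which the labels do not say whether they had stood in the drug. The uninjured values are given beside the others for orientation, and the labels do not say whether replicate libraries stem from separate clutches or days, so p-values measure only the spread between these libraries.

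A heart valve leaflet holds fibroblast-like interstitial cells in a matrix of collagen, proteoglycan and elastic fibres, under a sheet of endothelial cells. After injury to a zebrafish heart, immune cells enter, surviving or incoming cells divide, and a provisional matrix rich in fibronectin and hyaluronan is laid down and later remodelled. TGF-beta signalling through Smad3 is known for its part in matrix production by valve interstitial cells, and Notch and BMP signalling for the forming of valves in the embryo.

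In the 6 libraries, column totals were 15383031 to 17979624 normalised counts at 48 h and 19468771 to 19565088 at 21 d, without overlap. Spearman's rho over the kept genes was 0.892 to 0.926 between these libraries within a group, and 0.843 to 0.880 between 48 h and 21 d. Along the leading principal component of all 9 libraries (25.5% of the variance) 48 h library 2 stood at 163, above the other 48 h libraries at 97.6 and 75.9. On it the 21 d libraries, at -58.9 to -42.6, overlapped with the uninjured ones, at -75.3 to -48.0. The 48 h library 2 listed 1471 kept genes at 0, against 330 to 948 in the other 5 of the 6 libraries. Summed over 6 marker genes, valve interstitial markers lay at 24777 to 29168 at 48 h and at 61020 to 69169 at 21 d (79496 to 96214 in uninjured tissue). Most of this sum came from dcn and col1a2. Both of these, lum and elnb were higher at 21 d without overlap. The marker bgnb overlapped, at 381, 77 and 215 and then 277, 510 and 950, as did fmoda, at 41, 0 and 17 and then 0, 101 and 0. Over 6 genes endothelial markers lay at 23683 to 42211 and at 19490 to 20037. The highest sum was that of 48 h library 1, with cdh5 at 21644 and tie1 at 8650. The groups overlapped for cdh5 and kdrl, and did not for tie1, pecam1, fli1a and nfatc1. Other tissue was present too: heart muscle markers lay at 180143 to 236952 at 48 h and at 303497 to 397534 at 21 d, and red cell markers at 281179 to 682793 and at 1001599 to 1429024. Sums for 4 macrophage markers were 3229 to 4541 at 48 h and 1258 to 2031 at 21 d. In bulk tissue, fewer cells of a type and less RNA per cell cannot be told apart, and the part of these marker differences in the results was not tested.

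Many genes of cell division, of macrophages, of cytokine signalling, of complement and of protein folding for secretion were lower at 21 d. Higher at 21 d than at 48 h were many genes of valve proteoglycans and elastic fibres, of heart muscle and of red cells. The same held for many genes of growth hormone, IGF and insulin signalling, of glucocorticoid response and of the circadian clock. The members of these gene lists were chosen with earlier results of these data known. Their shares, set beside those of all genes, thus describe these data and do not test a theme. In numbers, 977 genes were higher at 21 d (5.84% of the kept genes) and 788 were lower (4.71%), together 10.6%, at an adjusted p under 0.05. At least a 2-fold difference was fitted for 728 of the higher genes (4.35%) and for 600 of the lower ones (3.59%), and the groups did not overlap for 4811 genes (28.8%). Among the higher genes 28, and among the lower genes 49, had passed the minimum through 1 group only. When every library was scaled to the same total, the median of all genes moved to -0.24 on the log2 scale and the split became 608 higher and 1284 lower, or 32.1% higher in place of 55.4%. Leaving out 21 d library 1, 2 or 3 gave 611, 668 and 687 higher genes and 522, 544 and 621 lower genes. Leaving out 48 h library 1, 2 or 3 gave 1039, 839 and 821 higher genes and 641, 513 and 489 lower genes. Quantile normalization gave 974 higher and 959 lower genes. List counts under an alternative, given below, are to be read beside these counts over all genes. No gene was called in the opposite direction under any of the 13 alternatives.

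**Figure D1:**
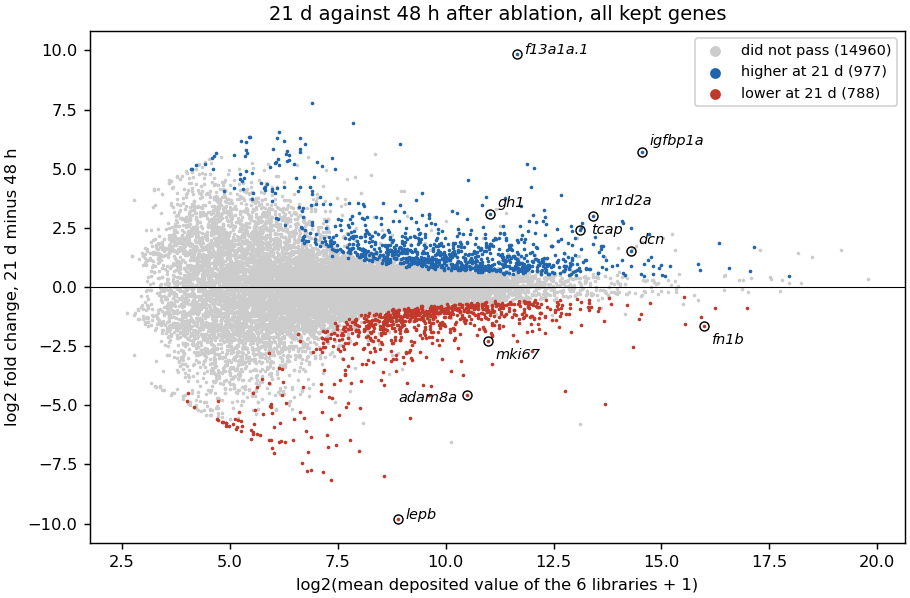
Log2 fold change of each kept gene, 21 d minus 48 h, against its mean level in the 6 libraries on the log2(value + 1) scale. Blue points are the 977 genes higher at 21 d, red points the 788 lower genes and grey points the genes that did not pass. The lowest fitted change among the circled genes is that of lepb, which was listed at 0 in every 21 d library.

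**Figure D2:**
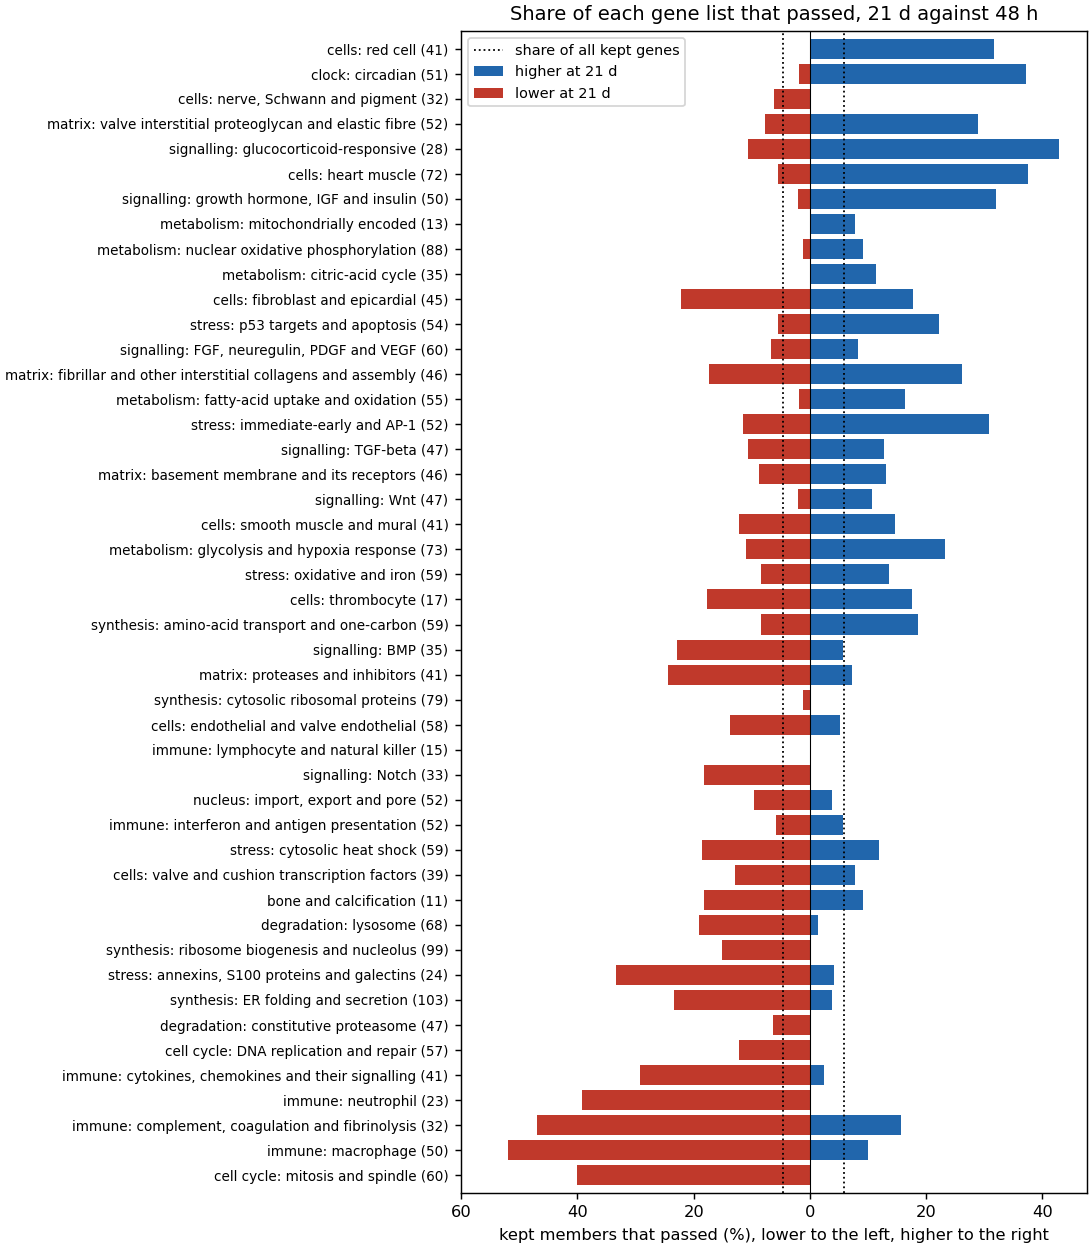
Share of the kept members of each gene list that were lower (red, to the left) or higher (blue, to the right) at 21 d, with the number kept in brackets and lists ordered by their median fold change. Dotted lines give the shares over all kept genes, 4.71% lower and 5.84% higher. Macrophage genes reached 52.0% lower near the bottom and glucocorticoid-responsive genes 42.9% higher near the top.

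Genes of secreted signals stood among the 12 steepest falls, beside genes with clone names. The leptin gene lepb, known in zebrafish as a hormone gene switched on in injured heart and fin, had normalised counts of 746, 724 and 1382 at 48 h and 0 in each 21 d library. It was at least 292-fold lower with a floor of 3 reads per library. This bound and those below use the mean of the other group, not its lowest library. The adrenomedullin gene admb, a vasodilator peptide, read 68, 1088 and 1109 at 48 h and 0, 4 and 0 at 21 d (log2 fold change -8.0, SE 1.67). Both were near 0 in uninjured tissue, at 0 to 29 and at 0 to 19. The interleukin-11 gene il11b, a cytokine that signals through gp130, stood at 18, 373 and 283 at 48 h and was listed at 0 at 21 d. By the mean at 48 h it was at least 69.1-fold lower, but 48 h library 1 lay far closer to the floor. The call of il11b did not hold without 48 h library 2 (adjusted p = 0.0731) or 3 (0.0699). The ubiquitin ligase gene g2e3 read 365, 127 and 206 and then 0 in each library, at least 71.6-fold lower. Since lepb, admb, il11b and g2e3 reached the minimum of 10 in the 48 h libraries alone, they had to differ, and their calls are a description. The chemokine gene ccl34a.3 went from 803, 352 and 326 to 0, 0 and 50, and the complement gene c3a.1 from 144, 706 and 446 to 2, 0 and 22. Neither of those calls held in every alternative: that of ccl34a.3 was lost without 48 h library 1 (0.0601) or 21 d library 1 or 2 (0.0626 and 0.0648), and that of c3a.1 without 48 h library 2 or 3 (0.0685 and 0.0598) or 21 d library 2 (0.0509). The other lower genes at this end have clone names or no well-known role: CU927934.1, CU927934.3, si:ch211-153b23.4, si:ch211-190k17.19, si:ch211-197l9.2 and zgc:195023, with means of 204 to 340 at 48 h. Of these, both CU927934 genes, si:ch211-190k17.19 and si:ch211-197l9.2 were listed at 0 in each 21 d library and likewise reached the minimum at 48 h alone. The call of zgc:195023 was lost without 48 h library 2 (0.0565).

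At the other end stood the coagulation factor XIII subunit gene f13a1a.1, whose product cross-links fibrin. Its values were 13, 0 and 14 at 48 h and 11956, 3419 and 3833 at 21 d, with 950 to 4978 in uninjured tissue (log2 fold change 9.83 with SE 1.25, adjusted p = 0.00395). The gene prss35 rose from 6, 0 and 6 to 328, 588 and 460 (6.93, SE 0.72), and reached the minimum of 10 at 21 d alone, so that it had to differ. A carrier of insulin-like growth factors, igfbp1a, rose from 573, 925 and 1304 to 52443, 34695 and 55050 (5.71, SE 0.41, adjusted p = 7.24e-05), a 52.5-fold difference. In all 3 genes the groups were far apart, and the 21 d values overlapped with those of uninjured tissue, which for igfbp1a were 21727 to 56759. The orphan nuclear receptor gene nr4a3 rose from 127, 263 and 479 to 7952, 8055 and 8446 (32.2-fold). The cystathionine gamma-lyase gene cthl rose from 0, 16 and 19 to 417, 318 and 209, and the sialyltransferase gene st8sia5 from 18, 1 and 4 to 209, 402 and 136. The synaptic adhesion gene nlgn4a rose from 27, 0 and 35 to 347, 251 and 369. The angiotensin receptor gene agtr2 rose from 26, 0 and 20 to 352, 106 and 229, a call that was lost without 48 h library 2 (adjusted p = 0.092) or without any one of the 21 d libraries (0.052 to 0.117). The remaining 4 genes at this end were cbarpb, ggact.2, zgc:122979 and zgc:162608. Of these, ggact.2 was listed at 0 in each 48 h library and read 152, 174 and 382 at 21 d, at least 77.6-fold higher, and it too reached the minimum at 21 d alone.

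Genes of cell division were lower at 21 d throughout. Of the 60 kept genes of mitosis and the spindle, 24 fell (40%, against 4.71% of all kept genes), and the list had a median log2 fold change of -2.04, against 0.00 over all genes. All 60 had a negative fold change, and for 48 of them every 21 d library lay below every 48 h library. Over all kept genes, 28.8% did not overlap in either direction. Of the list, 15 genes fell without 48 h library 1 and 14 without 48 h library 3. Over all kept genes the lower count went from 788 to 641 and 489 in these settings. For mki67, a marker of cycling cells, the values were 4964, 2723 and 2463 at 48 h, 446, 749 and 855 at 21 d, and 400 to 727 in uninjured tissue (log2 fold change -2.29 with SE 0.31, adjusted p = 5.24e-05). The 48 h libraries were all above the others, and the 21 d and uninjured ranges overlapped. The spindle assembly factor gene tpx2 fell from 1442, 716 and 1050 to 140, 106 and 113 (-3.10, SE 0.48, adjusted p = 0.000169). The scaffold gene of the cleavage furrow, anln, fell from 3276, 1108 and 1937 to 395, 514 and 556 (-1.98, SE 0.32). The mitotic kinase gene plk1 fell from 1199, 479 and 767 to 52, 133 and 151, the entry kinase gene cdk1 from 929, 425 and 911 to 153, 104 and 216, and the activator of the anaphase-promoting complex, cdc20, from 407, 262 and 488 to 0, 38 and 35. In each of these 3 genes 48 h library 2 was the lowest at 48 h, and its groups did not overlap.

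The share was smaller in genes that copy DNA, a difference that was not tested. Of 57 kept genes of DNA replication and repair, 7 fell (12.3%), with a median of -0.92. The helicase subunit gene mcm3 read 472, 496 and 433 at 48 h and 73, 118 and 54 at 21 d (log2 fold change -2.57 with SE 0.45, adjusted p = 0.000625). The maintenance methylation factor gene uhrf1 fell from 935, 776 and 708 to 129, 241 and 154 (4.73-fold). The sliding clamp gene pcna fell from 2487, 2129 and 2726 to 815, 1230 and 903 (2.52-fold), and its uninjured range of 651 to 1210 overlapped with that at 21 d. In the list of nuclear import, export and pore genes, 5 of 52 fell (9.62%) and 2 rose (3.85%), with 9 lower with equal totals and 1 to 3 lower when 48 h library 2 or 3 or any 21 d library was left out. The importin gene kpna2, which carries cargo into the nucleus and is known to follow the cell cycle, fell from 1872, 1115 and 1574 to 25, 165 and 125 (log2 fold change -4.19 with SE 0.57, adjusted p = 4.08e-05). The exportin gene xpo7 rose from 1905, 1508 and 1172 to 3553, 2433 and 3655 (2.11-fold), and the pore gene nup98 from 1352, 1280 and 1370 to 2894, 1788 and 2372, a call that was lost with equal totals (adjusted p = 0.129) and without 48 h library 2 or 21 d library 1 or 3 (0.0563 to 0.123).

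Macrophage genes made up the list with the largest lower share, 26 of 50 kept members (52.0%), with a median of -1.28. The growth factor gene csf1a and its receptor gene csf1rb were among the 5 members that rose (10%), the first from 29, 21 and 34 to 153, 118 and 244 and the second from 0, 0 and 3 to 111, 81 and 43, which reached the minimum of 10 at 21 d alone. The call of csf1a was lost without 21 d library 3 (adjusted p = 0.0593) and that of csf1rb without 21 d library 1 or 2 (0.0777 and 0.0582). These 5 also included cd74a, the invariant chain gene of antigen presentation, which went from 315, 713 and 1044 to 1492, 1697 and 2224 (2.88-fold). Among those that fell, the macrophage growth factor gene il34 read 1091, 899 and 837 at 48 h and 83, 138 and 211 at 21 d (log2 fold change -2.79 with SE 0.41, adjusted p = 9.95e-05). The progranulin genes grn1 and grna, known in macrophages, fell from 2449, 1211 and 2807 to 453, 342 and 247, and from 4287, 2030 and 2567 to 703, 758 and 1070. The scavenger receptor gene marco fell from 2530, 1592 and 1823 to 461, 627 and 1258, and the actin-bundling gene of white cells, lcp1, from 3851, 2022 and 3885 to 789, 1157 and 1194. The myeloid transcription factor gene spi1b fell from 491, 478 and 821 to 161, 151 and 135 (3.87-fold), to a range close to that of uninjured tissue, 128 to 156. The cathepsin gene ctss2.1 fell from 1648, 1078 and 1121 to 303, 345 and 349 (3.79-fold).

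The defining macrophage markers were less clear. The perforin-2 gene mpeg1.1 read 935, 836 and 808 at 48 h and 352, 709 and 414 at 21 d, without overlap, but did not pass (log2 fold change -0.87, SE 0.37, adjusted p = 0.145). Against uninjured tissue, at 92 to 222, it was higher at 21 d (1.78, adjusted p = 0.014). The colony-stimulating factor receptor gene csf1ra went from 850, 574 and 569 to 398, 136 and 257 (-1.44, SE 0.42, adjusted p = 0.031), a call lost without any one of the 48 h libraries (0.0567 to 0.111) and without 21 d library 2 or 3 (0.165 and 0.0691). The antigen-presentation gene cd74b rose from 1217, 1195 and 1368 to 2267, 2641 and 2303 (1.91-fold) and was higher at 21 d than in uninjured tissue too (1.2, adjusted p = 0.0044). In the whole list of interferon and antigen-presentation genes, 3 of 52 rose and 3 fell (5.77% each), shares near those of all genes, and 5 fell with equal totals or quantile normalization. The regulatory factor gene irf1b was among those that fell, from 1100, 806 and 1086 to 129, 252 and 117 (6.29-fold). A second identifier with that symbol read 569, 794 and 328 and then 314, 238 and 467, and did not pass (adjusted p = 0.246). Lymphocyte markers were scarce, with sums of 0 to 29 at 48 h and 25 to 65 at 21 d over 3 genes.

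Of 23 kept neutrophil genes 9 fell (39%, median -0.97), and 5 without 48 h library 1 or 3. The Src-family kinase gene hck, active in myeloid cells, fell from 1111, 804 and 597 to 259, 182 and 239 (log2 fold change -1.85, SE 0.35, adjusted p = 0.00132), and the metalloprotease gene adam8a, known in white cells, from 3147, 2969 and 2167 to 105, 63 and 228 (-4.56, SE 0.44, adjusted p = 5.16e-07). The gelatinase gene mmp9 fell from 244, 1461 and 855 to 93, 24 and 81 (11.7-fold). The granule enzyme myeloperoxidase, encoded by mpx, read 262, 123 and 164 at 48 h and 126, 24 and 51 at 21 d. Its groups overlapped and it did not pass (adjusted p = 0.555), and the sum of 4 neutrophil markers, at 445 to 830 and 261 to 491, overlapped as well. Each of the other markers in that sum overlapped too. The values of npsn were 416, 252 and 474 and then 157, 149 and 363, and those of csf3r 69, 66 and 157 and then 94, 74 and 24. The lysozyme gene lyz went the other way at low values, from 8, 4 and 35 to 12, 14 and 53.

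Among cytokines, chemokines and their signalling genes, 12 of 41 fell (29.3%) and 1 rose (2.44%), with a median of -0.97. Those that fell include il11b, described above, which reached the minimum at 48 h alone and so had to differ. The feedback inhibitor gene of Jak-Stat signalling, socs3b, read 2470, 3977 and 5290 at 48 h and 249, 349 and 679 at 21 d, with 585 to 1117 in uninjured tissue (log2 fold change -3.26 with SE 0.37, adjusted p = 3.1e-05). The signal-transducing receptor gene il6st, encoding gp130, fell from 10853, 10071 and 8449 to 5428, 5120 and 5225, a smaller difference of 1.85-fold. The cytokine gene il11a went from 367, 464 and 652 to 30, 32 and 27, a 15.7-fold difference that passed with all libraries (adjusted p = 0.0225) but was lost when any one of the 6 was left out (0.055 to 0.124). The prostaglandin synthesis gene ptgs2a fell from 202, 178 and 486 to 38, 0 and 0, also below uninjured tissue at 64 to 164 (21 d minus uninjured -4.94, adjusted p = 0.048). The TNF receptor gene tnfrsf1a fell 2.12-fold and the chemokine gene cxcl12a 2.32-fold. The NF-kappaB inhibitor gene nfkbiab was the member that rose, from 1254, 1867 and 1481 to 3991, 3678 and 3189 (2.38-fold).

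Of 32 kept genes of complement, coagulation and fibrinolysis, 15 fell (46.9%) and 5 rose (15.6%), with a median of -1.12. The lower count was 9 without 48 h library 2 and 8 without 21 d library 2. The higher count was 2 or 3 with equal totals and without 48 h library 1 or 3 or any 21 d library. The complement gene si:dkey-8k3.2, listed in RefSeq as c4b, fell from 1795, 3211 and 2537 to 113, 185 and 301 (log2 fold change -3.72, SE 0.43, adjusted p = 1.48e-05), with 98 to 351 in uninjured tissue. The properdin gene cfp, which stabilises the alternative complement convertase, fell from 2530, 2942 and 5050 to 917, 612 and 906 (4.19-fold). Neither gene overlapped between 48 h and 21 d, and neither differed from uninjured tissue at 21 d beyond the threshold (adjusted p = 0.975 and 0.605). The factor XIII gene f13a1a.1, described above, was among those that rose.

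**Figure D3:**
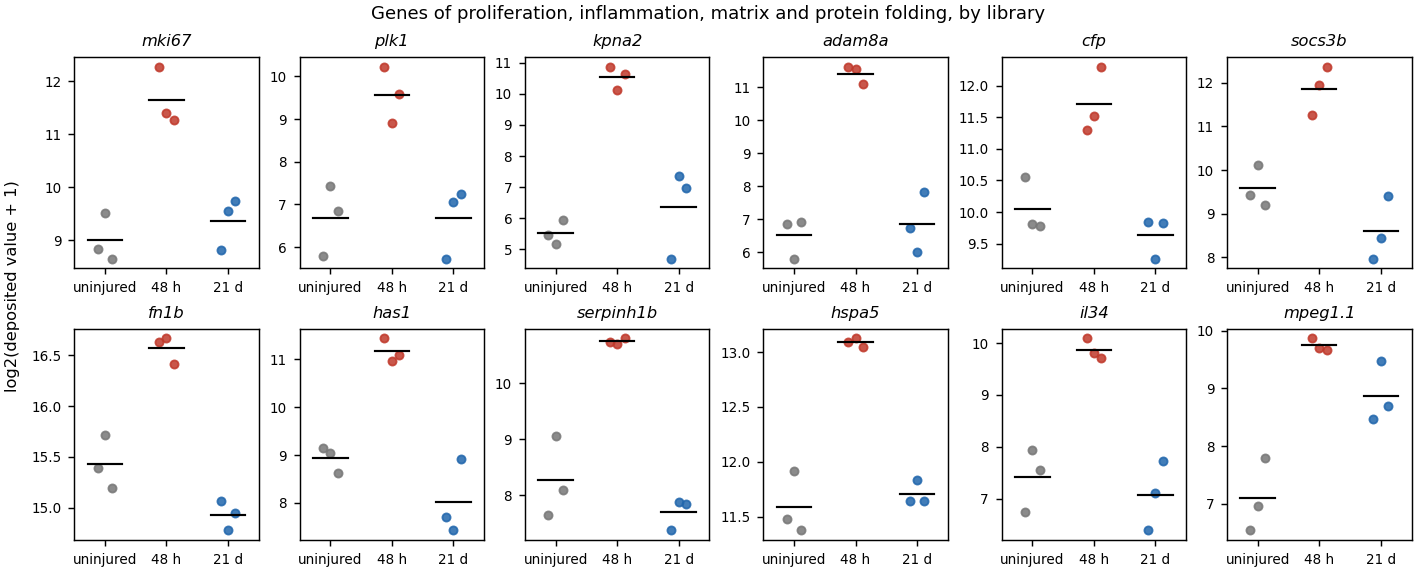
Levels of 12 genes of proliferation, inflammation, matrix and protein folding in each library, as log2(normalised count + 1), with points for libraries and lines for group means. In every panel the 48 h points lie above the 21 d points; for fn1b the 21 d points lie between 28069 and 34237 normalised counts, below all 3 uninjured libraries, and for mpeg1.1 they lie above them.

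Both fibronectin genes, a hyaluronan synthase gene and both genes of a collagen chaperone fell, though no single list holds them. The fibronectin gene fn1b read 101381, 104151 and 87220 at 48 h and 34237, 28069 and 31552 at 21 d (log2 fold change -1.64, SE 0.15, adjusted p = 2.21e-07), and its paralogue fn1a fell from 8212, 6015 and 5993 to 2195, 1855 and 2741 (-1.58, SE 0.20). The hyaluronan synthase gene has1 fell from 2780, 1986 and 2197 to 208, 171 and 482 (-3.15, SE 0.33, adjusted p = 1.45e-06), against 393 to 565 in uninjured tissue. The collagen chaperone genes serpinh1b and serpinh1a fell from 1709, 1676 and 1791 to 165, 234 and 228, and from 3200, 2524 and 3131 to 897, 732 and 923. The lysyl oxidase gene loxa, encoding a cross-linking enzyme, went from 786, 462 and 1328 to 421, 263 and 315, below uninjured tissue at 1540 to 1881 (21 d minus uninjured -2.40, adjusted p = 0.00019). Its call against 48 h was lost without 48 h library 3 (0.0946) or 21 d library 2 (0.0655).

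Of 41 kept genes of matrix proteases and inhibitors, 10 fell (24.4%) and 3 rose (7.32%), and the median of -0.10 was positive without 48 h library 1 or 3 or 21 d library 2 or 3. The higher count was 1 with equal totals and without 48 h library 2 or 21 d library 1 or 3. The sheddase genes adam9 and adam10a fell 3.11-fold, from 1591, 1571 and 1441 to 558, 488 and 438, and 1.62-fold. The inhibitor gene timp2b fell from 13361, 22882 and 39842 to 353, 435 and 2687, a 30.9-fold difference with 21 d library 3 above the other 2 (adjusted p = 0.0138, and 0.0586 with only the 6 libraries fitted). The gelatinase gene mmp2 rose from 2383, 2396 and 3169 to 5670, 4111 and 5493 (1.92-fold), opposite to mmp9.

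Many genes of protein folding for secretion were lower at 21 d. Of 103 kept genes of folding and secretion in the endoplasmic reticulum, 24 fell (23.3%) and 4 rose (3.88%), with a median of -0.51. With equal totals 37 fell, a setting in which the lower count over all genes went from 788 to 1284. The luminal Hsp70 gene hspa5, the chaperone known as BiP, read 8726, 8940 and 8458 at 48 h and 3193, 3648 and 3189 at 21 d (log2 fold change -1.38, SE 0.18, adjusted p = 2.22e-05), inside the uninjured range of 2654 to 3851. The disulfide isomerase gene pdia3 fell 2.46-fold, the lectin chaperone genes calr and canx 2.41-fold and 1.90-fold, and the Hsp90 gene of this compartment, hsp90b1, 2.33-fold. The stress phosphatase regulator gene ppp1r15a was among the 4 that rose, from 1225, 1390 and 1531 to 4112, 3755 and 4364 (2.96-fold). Among 99 genes of ribosome biogenesis and the nucleolus 15 fell (15.2%, median -0.46, and -0.71 with equal totals), with 6 and 5 without 48 h library 2 or 3 and 4 and 9 without 21 d library 2 or 3. The nucleolar genes npm1a and fbl fell 2.85-fold and 2.15-fold, and npm1a ended below uninjured tissue (-1.0, adjusted p = 0.038). The nucleolar phosphoprotein gene nolc1 fell 1.94-fold, but not without 48 h library 2 or 3 or 21 d library 3 (adjusted p = 0.0583 to 0.0633). The mature cytosolic ribosome was another matter: 1 of 79 ribosomal protein genes fell (1.27%, under the 4.71% of all genes), rps9, from 16550, 17041 and 15758 to 11930, 10981 and 12369. The call of rps9 was lost with only the 6 libraries (adjusted p = 0.0556), with no robust step (0.0551) and without 48 h library 2 or any 21 d library (0.0574 to 0.109). With equal totals or quantile normalization 12 of the 79 fell, and 8 without 48 h library 1.

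Of 68 lysosome genes 13 fell (19.1%) and 1 rose (1.47%), with a median of -0.45. With equal totals 21 fell and the median was -0.70, while the lower count over all genes went from 788 to 1284. The cathepsin genes ctsba and ctsc read 5795, 6098 and 5974, and 3686, 2833 and 3583, at 48 h, and 1314, 2117 and 2948, and 1270, 1059 and 1931, at 21 d. The collagen-degrading cathepsin gene ctsk fell 2.13-fold. The membrane gene cd63 fell from 5155, 9034 and 10833 to 2560, 3082 and 3359 (2.67-fold). These cathepsins and cd63 are common to many cells and abundant in macrophages, whose marker sums are given above, and the part of macrophages in their fall was not tested. In the constitutive proteasome 3 of 47 genes fell (6.38%, near the 4.71% of all genes), psma8, psmc3 and psmd3. With equal totals, which raised the lower count over all genes too, 10 fell. The call of psmd3 was lost without 48 h library 2 or 3 or 21 d library 1 or 3 (adjusted p = 0.0841 to 0.164).

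Proteoglycan and elastic-fibre genes of the valve were often higher at 21 d, though several had not reached the level of uninjured tissue. Of 52 kept genes of valve interstitial proteoglycans and elastic fibres, 15 rose (28.8%, against 5.84% of all genes) and 4 fell (7.69%), with a median of 0.68. With equal totals 9 rose and 7 fell, with a median of 0.43, and the median was 0.33 without 48 h library 2. The proteoglycan gene dcn, encoding decorin, read 9474, 9764 and 12083 at 48 h and 30253, 31085 and 28468 at 21 d (log2 fold change 1.53, SE 0.14, adjusted p = 3.21e-07). Uninjured tissue stood at 35746 to 39409, from which dcn at 21 d did not differ beyond the threshold (-0.32, adjusted p = 0.345). Lumican, the related proteoglycan encoded by lum, rose from 117, 17 and 74 to 380, 656 and 1001, and had stood at 1621 to 3706. The elastin gene elnb rose from 89, 81 and 61 to 597, 439 and 417 (2.64, SE 0.32, adjusted p = 1.26e-05) and stayed below its uninjured level of 1961 to 4224 (21 d minus uninjured -2.53, adjusted p = 0.00015). The elastic-fibre gene fbln5 showed the same order, with 119, 227 and 360 at 48 h, 624, 1192 and 690 at 21 d and 2622 to 4349 in uninjured tissue (-2.03, adjusted p = 0.0065). The proteoglycan gene prelp rose 3.28-fold and the matricellular gene thbs2a 5.68-fold, from 216, 159 and 110 to 1101, 631 and 1015. The cartilage intermediate layer gene cilp rose from 5485, 4481 and 2860 to 10395, 13633 and 6952 and was above uninjured tissue, at 3539 to 5391 (1.25, adjusted p = 0.03). Versican was split between its genes: vcanb went from 956, 1343 and 1378 to 1866, 2484 and 2576 (adjusted p = 0.0145), still below uninjured tissue at 3813 to 7372. That call was lost with equal totals (0.0871) and without 48 h library 1 or 21 d library 2 or 3 (0.057 to 0.0705). The other gene, vcana, read 317, 637 and 858 and then 78, 206 and 649, and did not pass (adjusted p = 0.229) unless 21 d library 3 was left out (0.00833). The 4 members that fell included has1 and loxa.

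Collagen chain genes and genes of collagen assembly were counted in 1 list. Among 46 kept genes of fibrillar and other interstitial collagens and their assembly, 12 rose (26.1%) and 8 fell (17.4%), with a median of 0.21 that was -0.04 with equal totals, and 4 fell without 48 h library 3 or 21 d library 1. The members that rose were sparc and chain genes, and the members that fell were genes of assembly and processing: serpinh1a, serpinh1b, plod1a, plod2, p4hb, ppib, bmp1a and pcolce2b. The type I chain genes col1a1b, col1a2 and col1a1a all rose. For col1a1b the values were 19335, 15491 and 14890 at 48 h and 39138, 36742 and 41873 at 21 d (log2 fold change 1.25, SE 0.14, adjusted p = 5.06e-06), for col1a2 they were 19066, 14838 and 15836 and then 29513, 30698 and 38333 (0.98, SE 0.15), and for col1a1a they were 32103, 24691 and 23067 and then 43922, 49940 and 53540 (0.89, SE 0.16). At 21 d 2 of the 3 values of col1a1b lay below the uninjured range of 41866 to 49926, a difference that did not pass (21 d minus uninjured -0.25, adjusted p = 0.526). The type VI chain genes col6a1 and col6a2 rose 2.22-fold and 2.32-fold. The collagen-binding protein gene sparc rose 2.08-fold, from 3698, 4260 and 4030 to 7708, 8001 and 9217. The fibril-associated chain gene col16a1 rose from 333, 350 and 374 to 1038, 1254 and 1046 and stayed below uninjured tissue (-1.25, adjusted p = 0.006). The collagen chaperones serpinh1b and serpinh1a, which are counted in this list, moved the opposite way, as given above. In basement membrane genes, 6 of 46 rose (13%) and 4 fell (8.70%). The higher count was 3 with equal totals and 2 or 3 without 48 h library 2 or any 21 d library, and col18a1b, from which endostatin is cut, was the clearest, from 768, 400 and 263 to 2092, 1200 and 1143 (3.28-fold). The fibronectin genes fn1b and fn1a are 2 of the 4 that fell. In the short list of bone and calcification genes, 2 of 11 fell (18.2%) and 1, sparc, rose (9.09%). The osteoprotegerin gene tnfrsf11b, a decoy receptor, fell from 1142, 1355 and 1977 to 28, 53 and 144 (23.8-fold), and its counterpart receptor gene tnfrsf11a, encoding Rank, from 1139, 1163 and 1699 to 184, 181 and 144 (7.73-fold). For tnfrsf11a the 21 d values were also below the uninjured ones of 400 to 563 (-1.46, adjusted p = 0.013).

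**Figure D4:**
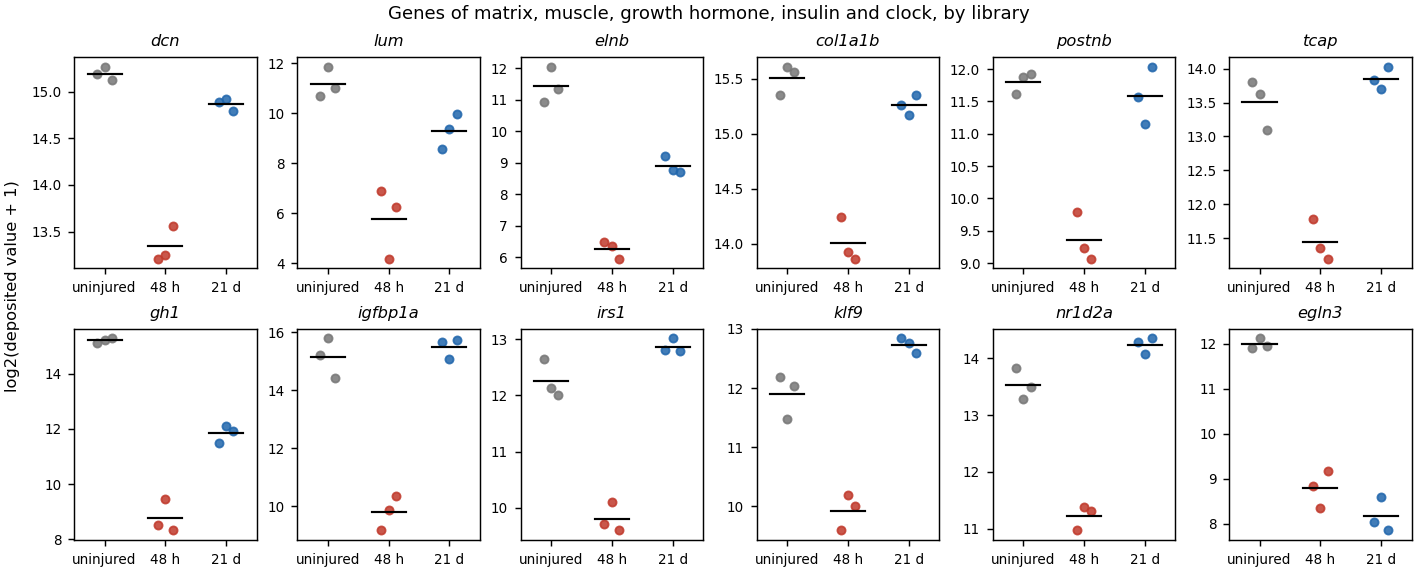
Levels of 12 genes of matrix, muscle, growth hormone, insulin, clock and hypoxia in each library, as log2(normalised count + 1), with points for libraries and lines for group means. In 11 panels the 21 d points lie above the 48 h points; for gh1 they lie at 2882 to 4370 normalised counts, between 48 h and uninjured tissue, and for egln3 the 21 d and 48 h points overlap below uninjured tissue.

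TGF-beta genes changed member by member. Of 47 kept genes 6 rose (12.8%) and 5 fell (10.6%), with a median of 0.16 that was -0.08 with equal totals, and 3 fell without 48 h library 1 or 21 d library 1. The ligand gene tgfb1b read 1059, 1251 and 1078 at 48 h and 350, 246 and 423 at 21 d (log2 fold change -1.76, SE 0.31, adjusted p = 0.000709), overlapping with the uninjured range of 248 to 481. The ligand gene tgfb1a went from 1795, 1775 and 1237 to 918, 960 and 1103, without overlap, and missed the threshold (-0.67, SE 0.22, adjusted p = 0.0542), though it passed with equal totals, quantile normalization, no robust step or without 48 h library 3 (0.00829 to 0.0429). The values of tgfb2 were 887, 441 and 416 and then 1265, 877 and 772 (0.80, SE 0.30, adjusted p = 0.105), and it passed without 48 h library 1 (0.0145). The values of tgfb3 were 1482, 1475 and 1704 and then 1765, 1454 and 2022 (0.16, SE 0.21, adjusted p = 0.71), with the sign reversed with equal totals. Of the transducer genes, smad3b rose from 137, 329 and 192 to 572, 603 and 665 (1.57, SE 0.36, adjusted p = 0.00634), while smad3a read 1300, 698 and 966 and then 1331, 1326 and 1274 and did not pass (adjusted p = 0.271). Among targets, the periostin gene postnb rose from 882, 601 and 536 to 3022, 2273 and 4199 (4.66-fold), and the repressor gene snai2 from 331, 246 and 732 to 1109, 1485 and 1617 (1.82, SE 0.31, adjusted p = 0.000525).

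In BMP signalling, 8 of 35 genes fell (22.9%) and 2 rose (5.71%), with a lower count of 5 without 48 h library 1 or 3 and 4 without 48 h library 2 or 21 d library 1 or 2. The target gene id2b, a helix-loop-helix inhibitor, fell from 6257, 4726 and 3809 to 1432, 1659 and 1934 (log2 fold change -1.54 with SE 0.22, adjusted p = 8.65e-05). The receptor gene bmpr1ab fell from 2296, 1811 and 2142 to 815, 1077 and 795 (2.34-fold). The anti-proliferative gene tob1a, known in mammals as an inhibitor of BMP signals, was one of the 2 that rose, from 2447, 3222 and 2021 to 13354, 12986 and 12462 (2.36, SE 0.19, adjusted p = 5.14e-08). In Notch signalling, 6 of 33 genes fell (18.2%), and 3 without any one of the 6 libraries. The receptor gene notch3, known in mural cells, fell from 3634, 2534 and 2707 to 1516, 1361 and 1517 (2.00-fold), and the target gene nrarpa, a feedback inhibitor, from 1565, 1045 and 1199 to 680, 537 and 600 (2.07-fold). The receptor gene notch1b, known in valve endocardium, read 4489, 2562 and 2168 and then 2993, 3223 and 3381, with overlap (0.13, SE 0.25, adjusted p = 0.814), and its sign reversed with equal totals, quantile normalization and without 48 h library 3.

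Wnt genes were led by an antagonist. Of 47 kept genes 5 rose (10.6%) and 1 fell (2.13%), and with equal totals 1 rose and 4 fell. The higher count was 8 without 48 h library 1 and 2 or 3 without 48 h library 2 or any 21 d library. The secreted antagonist gene frzb read 15157, 10556 and 7711 at 48 h and 22368, 25820 and 23395 at 21 d (log2 fold change 1.15 with SE 0.20, adjusted p = 0.000848). The ligand gene wnt2bb and the receptor gene ror2 rose 2.28-fold and 1.81-fold, and both calls were lost with equal totals (adjusted p = 0.0666 and 0.135) and when single libraries were left out: for wnt2bb 48 h library 2 or 3 or 21 d library 1 (0.0562 to 0.0917), and for ror2 48 h library 2 or 3 or 21 d library 2 or 3 (0.0706 to 0.116). In the list of FGF, neuregulin, PDGF and VEGF genes, 5 of 60 rose (8.33%) and 4 fell (6.67%). These shares were near the 5.84% and 4.71% of all kept genes. The higher count was 2 or 3 with equal totals and without any one of the 21 d libraries, and the lower count was 2 without 21 d library 1. The feedback phosphatase gene of Erk signalling, dusp6, rose from 5006, 5683 and 5191 to 10757, 12083 and 8230 (1.93-fold) and was above uninjured tissue, at 5271 to 6444 (0.85, adjusted p = 0.014). The growth factor gene hbegfb fell from 269, 1662 and 1709 to 86, 171 and 168 (adjusted p = 0.00835), a call that was lost without 21 d library 1 (0.0512).

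Endothelial genes as a group were close to the shares of all genes on the higher side and above them on the lower side, with 8 of 58 lower (13.8%) and 3 higher (5.17%). The higher count was 1 with equal totals, quantile normalization or without 48 h library 2. The junction genes cldn5b and esama fell from 1581, 2570 and 1679 to 263, 507 and 553 (4.51-fold), and from 1808, 1478 and 1189 to 459, 545 and 488 (2.96-fold). The receptor gene tie1 fell from 8650, 4194 and 4219 to 2667, 1946 and 2175 (2.38-fold). The VE-cadherin gene cdh5, a general endothelial marker, read 21644, 12561 and 10455 and then 10652, 10100 and 10446, with overlap, and did not pass (log2 fold change -0.45, SE 0.22, adjusted p = 0.221). For tie1 and cdh5 the highest value was that of 48 h library 1.

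Of 39 kept genes of valve and cushion transcription factors 5 fell (12.8%) and 3 rose (7.69%). The lower count was 3 without 48 h library 1, 21 d library 1 or 21 d library 2, with only the 6 libraries or with the replicate number as a block, and 8 with equal totals. The higher count was 1 with equal totals, quantile normalization or without 48 h library 2 or 3 or 21 d library 2 or 3. The gene snai2, known for the change of endothelium to mesenchyme in cushions, was among those that rose, by the values given above. The endothelial factor gene fli1a fell from 5238, 5731 and 4134 to 2446, 3124 and 2670 (1.83-fold). The flow-responsive factor gene klf2a read 3103, 2582 and 2865 and then 3734, 4590 and 4498 (0.58, SE 0.18, adjusted p = 0.0394), a call lost with equal totals (0.311), quantile normalization (0.178), only the 6 libraries (0.0553) and without 48 h library 2 or 3 or 21 d library 2 or 3 (0.0796 to 0.132). The valve endothelial factor gene nfatc1 went from 2493, 1623 and 1815 to 1608, 1371 and 1405, without overlap, and did not pass (-0.41, SE 0.25, adjusted p = 0.33). The cushion factor gene twist1b read 299, 353 and 604 and then 329, 458 and 319 (-0.14, SE 0.35, adjusted p = 0.864), with the sign reversed without 48 h library 3, and at 21 d was below uninjured tissue, at 674 to 1733 (-1.63, adjusted p = 0.018).

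Fibroblast and epicardial genes moved both ways, with 10 of 45 lower (22.2%) and 8 higher (17.8%), and a median of 0.33 that was 0.08 with equal totals, 0.19 with quantile normalization and just below 0 without 48 h library 2. The retinoic acid synthesis gene aldh1a2, known in activated epicardium and endocardium of the injured zebrafish heart, fell from 6167, 7958 and 9775 to 1421, 1961 and 2955, overlapping with the uninjured range of 1667 to 2082 (log2 fold change -1.95 with SE 0.24, adjusted p = 1.08e-05). The other 3 epicardial markers, tcf21, tbx18 and wt1b, did not pass. Of these, tbx18 read 1563, 969 and 875 and then 865, 676 and 723, without overlap. The groups overlapped for tcf21 and wt1b. The sum of all 4 markers lay at 8754 to 11053 at 48 h and at 2781 to 4090 at 21 d, and most of it came from aldh1a2. In smooth muscle and mural genes 6 of 41 rose (14.6%) and 5 fell (12.2%), with 3 higher with equal totals and 2 without 21 d library 1. The actin cross-linker gene flna fell from 20588, 16855 and 19869 to 8698, 6668 and 5842 (2.73-fold), and the calponin gene cnn2 from 6322, 5899 and 5960 to 2436, 2303 and 2456 (2.53-fold). Summed smooth muscle markers overlapped, at 3455 to 7970 and 3694 to 6696.

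Many heart muscle genes were higher at 21 d. Of 72 kept genes 27 rose (37.5%) and 4 fell (5.56%), with a median of 0.52, and 0.27 with equal totals. The titin-cap gene tcap read 3531, 2607 and 2346 at 48 h and 14534, 13309 and 16724 at 21 d, against 8779 to 14234 in uninjured tissue (log2 fold change 2.41 with SE 0.20, adjusted p = 6.09e-08). Of the 2 identifiers of the cardiac actin gene actc1a, whose reads may be shared between near-identical copies, the first rose from 33532, 41533 and 30788 to 109588, 164592 and 116397 (3.66-fold). The second went the opposite way, from 20042, 19182 and 12619 to 416, 330 and 207, and did not pass (log2 fold change -5.79, SE 2.02, adjusted p = 0.145), with uninjured values of 29710, 166 and 165. The thick-filament gene mybpc3 rose from 18940, 19432 and 22051 to 38951, 38334 and 34976 (1.86-fold). The myosin light chain gene myl7 read 32661, 56457 and 49521 and then 86734, 64050 and 72917 (1.64-fold), a call lost with equal totals (adjusted p = 0.104), with no robust step (0.0739) and without 21 d library 1 (0.0803). The 4 members that fell included nppb, a natriuretic peptide gene of strained heart muscle, from 3525, 8476 and 9365 to 1220, 973 and 878 (6.45-fold), and the gap-junction gene cx43, from 1082, 881 and 1250 to 444, 181 and 223 (4.04-fold). The related peptide gene nppa read 16885, 31488 and 27224 and then 16336, 8705 and 9675, and did not pass (adjusted p = 0.175), though it did with only the 6 libraries (0.0202) or no robust step (0.041). The sum of heart muscle markers given above includes myl7, nppa and both identifiers of actc1a, so it is not separate from these genes. Within it nppa and the second actc1a identifier went lower. Heart muscle lies next to the leaflet, and its part in these values was not tested.

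Red cell genes had a median of 1.57, with 13 of 41 higher (31.7%), and 23 with only the 6 libraries or no robust step. The water channel gene aqp1a.1 rose from 1097, 1358 and 809 to 4892, 3534 and 4388 (log2 fold change 1.99 with SE 0.23, adjusted p = 5.49e-06). It is also counted in the endothelial list, so it is not particular to red cells. The transferrin receptor gene tfr1b rose from 1741, 1227 and 1354 to 3924, 4484 and 4828 (3.08-fold). The mitochondrial iron importer gene slc25a37 rose from 150, 97 and 57 to 801, 516 and 536 (6.38-fold). The nucleotidase gene nt5c2l1, also in this list, rose from 4223, 5810 and 8683 to 37476, 29041 and 35715 (5.67-fold). The 2 identifiers of the beta-globin gene hbba1, whose reads may be shared between near-identical copies, read 231359, 318083 and 123164 and then 587061, 413198 and 532238 (adjusted p = 0.117), and 109191, 94065 and 46773 and then 249223, 182604 and 277984 (0.0625). The second passed with quantile normalization, only the 6 libraries or no robust step (0.00995 to 0.0437). In the thrombocyte list 3 of 17 rose and 3 fell (17.6% each), with 1 lower without 48 h library 1 or 2 or 21 d library 2, and the glycoprotein gene gp1bb rose from 2256, 3349 and 3178 to 7339, 5084 and 7773 (2.29-fold).

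Most energy metabolism genes that passed were higher at 21 d. Of 55 fatty-acid genes 9 rose (16.4%) and 1 fell (1.82%), with a median of 0.17 that was -0.08 with equal totals, and 5 rose without 21 d library 1 or 3. The carnitine transferase gene cpt1b, which admits fatty acids to mitochondria, rose from 471, 418 and 319 to 1098, 1627 and 1116 (log2 fold change 1.66, SE 0.25, adjusted p = 0.000109), and the fatty-acid binding protein gene fabp11a fell from 3389, 4787 and 3531 to 1153, 1418 and 1137 (3.13-fold). The carrier gene ucp2 rose 2.29-fold and the co-activator gene ppargc1a, a regulator of mitochondrial content, from 311, 171 and 154 to 611, 757 and 1034 (3.86-fold). Of 35 citric-acid cycle genes 4 rose (11.4%), and 2 with equal totals or without 48 h library 3 or 21 d library 3. The genes ogdhb and idh3b, of the dehydrogenase steps, rose 2.33-fold and 1.91-fold, with the call of idh3b lost with equal totals (adjusted p = 0.0546) and without 48 h library 3 or 21 d library 3 (0.0612 and 0.0665). Of 88 nuclear genes of oxidative phosphorylation 8 rose (9.09%) and 1 fell (1.14%), against 5.84% and 4.71% of all kept genes. The higher count depended on the scaling: 2 rose with quantile normalization or without any one of the 21 d libraries, and with equal totals limma called 0 higher, with 6 at an unadjusted p under 0.05. The calls of atp5pb, cox6a2 and uqcrc1 were lost with equal totals (adjusted p = 0.116, 0.0646 and 0.108), that of atp5pb also without 21 d library 1 (0.0539), that of cox6a2 without 21 d library 2 (0.0833) and that of uqcrc1 without 48 h library 3 or 21 d library 1 or 3 (0.0611 to 0.0704). The 13 mitochondrially encoded genes all had positive fold changes with the deposited scaling, with a median of 0.39. That median was 0.14 with equal totals, 0.015 with quantile normalization, 0.13 without 48 h library 1 and 0.65 without 48 h library 2. The subunit gene mt-nd5 passed, from 98558, 137212 and 81181 to 169737, 170894 and 159902 (0.69, SE 0.15, adjusted p = 0.00408), but not with quantile normalization (0.101) or no robust step (0.112), and 9 of them passed without 48 h library 2.

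Glycolysis and hypoxia genes gave a median of 0.09, -0.16 with equal totals, from 17 of 73 higher (23.3%) and 8 lower (11%), with 4 or 5 lower without 48 h library 3 or 21 d library 1 or 3. In this list hif1al, hif1al2 and the Myc antagonist gene mxi1 rose together. The log2 fold change of hif1al was 2.27 (SE 0.18, adjusted p = 3.32e-08), from 1454, 1402 and 1599 to 7128, 7021 and 7274. That of hif1al2 was 1.84 (SE 0.19), from 2837, 3591 and 3136 to 12230, 10929 and 11075. That of mxi1 was 1.82 (SE 0.17), from 4559, 5625 and 4227 to 15271, 17880 and 17430. For hif1al2 the 21 d libraries were above uninjured tissue as well, at 4067 to 6872 (1.02, adjusted p = 0.0072). The oxygen sensor gene egln3 read 456, 325 and 579 at 48 h and 261, 387 and 230 at 21 d, with overlap (-0.63, SE 0.27, adjusted p = 0.159), against 3848 to 4450 in uninjured tissue (21 d minus uninjured -3.83, adjusted p = 8.5e-08).

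Genes of growth hormone, IGF and insulin signalling rose in 16 of 50 cases (32.0%) and fell in 1 (2.00%), with a median of 0.46, and with equal totals 10 rose and the median was 0.22. The hormone gene gh1, best known in the pituitary, read 366, 703 and 319 at 48 h and 2882, 4370 and 3928 at 21 d (log2 fold change 3.08, SE 0.24, adjusted p = 9.98e-08), and 36019 to 40083 in uninjured tissue (21 d minus uninjured -3.37, adjusted p = 2.6e-07). The 3 groups thus did not overlap, and the 21 d libraries lay between the others. The adaptor genes of the insulin receptor, irs1 and irs2b, rose from 839, 1102 and 774 to 7131, 8271 and 7073 (3.06, SE 0.20, adjusted p = 5.36e-09), and from 681, 1465 and 1377 to 7759, 8064 and 6844 (2.76, SE 0.25). The transcription factor gene foxo3b, which insulin signalling keeps out of the nucleus, rose from 4295, 5441 and 4051 to 13133, 10882 and 11372 (2.58-fold). The growth factor gene igf1 rose from 9, 0 and 22 to 100, 52 and 190, a call that was lost with only the 6 libraries (adjusted p = 0.0851) and without 21 d library 1 or 3 (0.0637 and 0.102). The growth factor gene igf2b went the other way, from 5939, 6008 and 7309 to 2587, 3216 and 3256 (2.13-fold lower).

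Glucocorticoid-responsive genes had the largest higher share, 12 of 28 (42.9%), with 3 lower (10.7%) and a median of 0.60, and 0.35 with equal totals. The highest log2 fold change in this list, 3.23, is that of the period gene per1b, which is also counted among the clock genes. This share is thus not separate from that of the clock genes given below. The chaperone gene fkbp5, a classical target of the receptor, read 2883, 5858 and 4724 at 48 h and 31715, 29541 and 28842 at 21 d (log2 fold change 2.80, SE 0.21, adjusted p = 9.13e-08), with 15332 to 23071 in uninjured tissue. The factor gene klf9 rose from 772, 1162 and 1029 to 7337, 6948 and 6206 (2.81, SE 0.21), and the kinase gene sgk1 from 3024, 3197 and 3307 to 12493, 13316 and 13939 (2.06, SE 0.16). For sgk1 the 21 d libraries were above uninjured tissue, at 6094 to 6823 (1.06, adjusted p = 0.00071). The leucine-zipper gene tsc22d3 and the phosphatase gene dusp1 rose 2.67-fold and 3.77-fold, and the glutamine synthetase gene glula 3.59-fold. For dusp1 the values went from 1077, 1524 and 2048 to 5812, 5323 and 5830.

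Many genes of the circadian clock were higher at 21 d. Of 51 kept genes 19 rose (37.3%) and 1 fell (1.96%), with a median of 0.83. For 28 of the 51 every 21 d library lay above every 48 h library, where 28.8% of all kept genes did not overlap in either direction. The period gene per1b, also counted in the glucocorticoid-responsive list, read 181, 224 and 243 at 48 h and 1682, 2410 and 2019 at 21 d (log2 fold change 3.23, SE 0.24, adjusted p = 1.77e-08). The genes per2 and per3 rose 5.52-fold and 3.18-fold. The Rev-erb genes nr1d2a and nr1d2b, repressors of the activator arm, rose from 2010, 2675 and 2534 to 19968, 17330 and 20899 (3.02, SE 0.17, adjusted p = 8.54e-10) and from 1073, 721 and 982 to 4377, 4620 and 3837 (2.22, SE 0.20). For nr1d2a, uninjured tissue at 9985 to 14485 lay below the 21 d libraries (0.71, adjusted p = 0.048). The cryptochrome genes cry1ab and cry1aa rose 6.34-fold and 2.51-fold. Of the activator genes, arntl1a read 336, 408 and 466 and then 594, 479 and 544 (0.42, SE 0.31, adjusted p = 0.443), and clocka 290, 81 and 220 and then 357, 440 and 522 (1.32, SE 0.46, adjusted p = 0.0718), which passed without 48 h library 1 (0.0314). Neither pair of groups overlapped. The D-box repressor gene nfil3 was the member that fell, from 546, 776 and 825 to 193, 184 and 201 (3.64-fold). The hour of collection is not given in the labels.

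**Figure D5:**
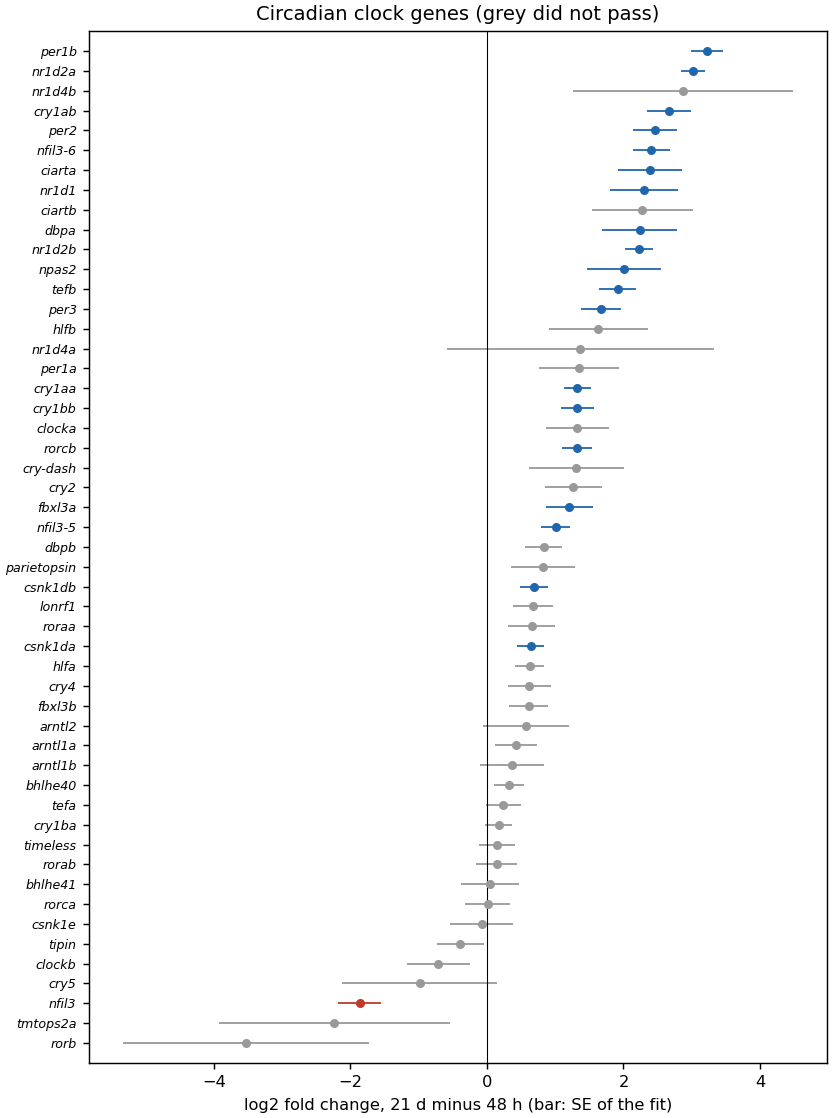
Log2 fold change, 21 d minus 48 h, of the 51 kept circadian clock genes, with the standard error of the fit as bars, blue for genes that rose, red for the gene that fell and grey for genes that did not pass. Period, Rev-erb and cryptochrome genes lie at the top, per1b first at 3.23, and the activator gene arntl1a lies near the middle at 0.42.

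Immediate-early genes moved both ways. In the list of immediate-early and AP-1 genes, 16 of 52 rose (30.8%) and 6 fell (11.5%), with a median of 0.17 that was -0.08 with equal totals, under which 11 fell. The nuclear factor gene csrnp1a rose from 245, 161 and 391 to 4379, 2367 and 4133 (log2 fold change 3.81, SE 0.32, adjusted p = 1.07e-06), nr4a3 rose as given above and its relative nr4a1 from 299, 644 and 443 to 2389, 2135 and 1479 (4.45-fold). The stress factor gene atf3 rose from 950, 988 and 592 to 4963, 3594 and 3572 (4.85-fold), to above its uninjured range of 1419 to 2851 (1.07, adjusted p = 0.043). The growth-induced factor gene egr1 was among those that fell, from 4290, 4080 and 4282 to 1632, 2146 and 2019 (2.2-fold).

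Of 54 kept p53 target and apoptosis genes 12 rose (22.2%) and 3 fell (5.56%), with 7 higher with equal totals or without 21 d library 1, and 1 lower without 21 d library 2. They included genes for both sides of cell death. The pro-death genes pmaip1 and bbc3, encoding Noxa and Puma, rose from 101, 206 and 187 to 1607, 981 and 748 (6.68-fold), and from 154, 120 and 137 to 634, 563 and 595 (4.35-fold). The survival gene bcl2l1 rose from 1704, 1254 and 1247 to 4716, 4021 and 4280 (3.12-fold). The cell-cycle inhibitor gene cdkn1bb rose from 825, 840 and 888 to 2153, 2434 and 2542 (2.78-fold). None of these 4 differed from uninjured tissue at 21 d beyond the threshold (adjusted p = 0.2 to 0.87).

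Cytosolic heat-shock genes fell in 11 of 59 cases (18.6%) and rose in 7 (11.9%), with a median of -0.23. The inducible gene hsp70l went from 200, 530 and 292 to 56, 27 and 84 (6.13-fold lower), below uninjured tissue at 250 to 435 (-2.72, adjusted p = 0.007). The co-chaperone genes bag3 and ptges3a rose from 869, 988 and 800 to 4231, 3985 and 2889 (log2 fold change 2.05, SE 0.21, adjusted p = 1.13e-06) and from 920, 907 and 1306 to 4992, 3078 and 5088 (2.05, SE 0.23). The Hsp90 gene hsp90aa1.1, known for myosin folding in muscle, rose 2.75-fold. In the oxidative and iron list 8 of 59 rose (13.6%) and 5 fell (8.47%), and the haem oxygenase gene hmox1a fell from 897, 1118 and 833 to 93, 116 and 97 (-3.20, SE 0.43, adjusted p = 3.36e-05). The metalloreductase gene steap4 fell from 1005, 1987 and 1001 to 54, 42 and 156 (17.5-fold). Of 24 annexin, S100 and galectin genes 8 fell (33.3%) and 1 rose (4.17%), with a median of -0.50. The annexin genes anxa1a and anxa2a fell 2.05-fold and 2.52-fold, and the galectin gene lgals9l1 from 987, 603 and 765 to 74, 105 and 97 (8.37-fold).

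Genes of amino-acid transport and one-carbon metabolism split, with 11 of 59 higher (18.6%) and 5 lower (8.47%), and a lower count of 9 with equal totals and 2 or 3 without 48 h library 2 or 3 or 21 d library 1 or 2. The heavy chain of several exchangers, slc3a2b, rose from 1349, 1261 and 1431 to 5959, 5072 and 5393 (log2 fold change 2.02 with SE 0.20, adjusted p = 9.65e-07), the glutamine carrier gene slc1a5 from 1534, 1784 and 1919 to 4520, 3418 and 5046 (2.46-fold), and the guanine nucleotide synthesis gene impdh2 from 2488, 2749 and 2565 to 9106, 7685 and 9037 (3.30-fold). All 3 lay below uninjured levels at 48 h and did not differ from them at 21 d beyond the threshold (adjusted p = 0.8 to 1).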

How the data were processed

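RNA from laser-cut atrioventricular valve tissue was sequenced as paired reads of 75 bases, per the labels' protocols. Per the submitters' processing notes, the tools were Trimmomatic 0.33, STAR 2.6.0c, featureCounts 1.6.0 and DESeq2 1.18.1, and the builds danRer11 and GRCz11. The authors deposited 1 table of normalised read counts (a signal here, not raw counts): from their spacing, the values are counts divided by a size factor of 0.851 to 1.398 and rounded, so a count model was not used. The labels' kit can add molecular indexes, and whether they were used is not given in the sources used here.

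Values were analysed as log2(value + 1) with limma 3.58.1 in R 4.3.3 (trend and robust variance, all 9 libraries in 1 fit, which left 6 residual degrees of freedom; contrast 21 d minus 48 h). The p-values were adjusted by the Benjamini-Hochberg method over the 16725 genes with a value of 10 or more in at least 3 of the 6 libraries, with a threshold of 0.05. Fold changes are on the log2(value + 1) scale, which understates low genes, and a fold is 2 to that power. "Rose" and "fell" mean past the threshold. "Equal totals" means each library scaled to the same sum. Comparisons with uninjured tissue come from the same fit and share the 21 d libraries. For genes listed at 0 in a whole group, a bound was set at 3 reads per library, which covers counting error only. The mean of the other group was divided by this floor, so single libraries can lie closer to it. Reads cannot be recovered for every library, so no counting intervals are given.

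The members of 46 gene lists (2454 symbols asked, 2185 found, 45 of them through a synonym) and the named genes were chosen with earlier results of these data known, and lists overlap. The rule for named genes took the 12 highest and 12 lowest fold changes among genes past the threshold whose groups did not overlap and whose higher group had a mean of at least 200, the 3 members with the smallest adjusted p among those that passed in each list, and a fixed list, together 160 genes. A further 68 genes were chosen after their values were seen. Some genes that the rule took are not reported here. Counting does not separate near-identical copies. The fit was tested on simulated data, in which 15 of 100 genes changed 2-fold and 67 of 100 changed 4-fold were called. Of 16514 unchanged genes 5 were called. The changed genes were drawn from those above a minimum mean level. They were also a far smaller share of the genes than the 10.6% called in the data. The Benjamini-Hochberg cutoff was therefore stricter in the simulation, and its shares do not carry over to this comparison. A gene that did not pass may still differ. Alternatives were equal totals, quantile normalization, a pseudocount of 5, no filter, only the 6 libraries, no robust step, the replicate number as a block and each library left out.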

Additional observations from a re-analysis of the deposited data

How the results depend on the processing

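The number of genes higher at 21 d was 977, and 608 with equal totals. The number lower was 788, and 1284 with equal totals. Leaving out each of the 6 libraries gave 611 to 1039 higher genes and 489 to 641 lower genes. The lowest higher count was without 21 d library 1, which also gave 522 lower genes, and 513 and 489 were lower without 48 h library 2 or 3. With quantile normalization the counts were 974 and 959, with a pseudocount of 5 they were 1066 and 889, without the filter 996 and 809 of 21146 genes, with only the 6 libraries 898 and 814, and with no robust step 982 and 781. Of the 608 higher genes with equal totals, 606 were among the 977, and all 788 lower genes were among the 1284.

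The replicate numbers did not pair the libraries: deviations from the group means correlated by 0.021, -0.0071 and 0.022 between libraries with the same number. With the replicate block, 974 genes were higher and 746 lower.

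Of 211 named genes that passed, 183 kept direction and call in all 13 alternatives, and 28 were lost in at least 1. Most named genes were picked for a small adjusted p, a large fold change or values already seen. Their share kept thus does not measure how well the calls of all genes hold. Of all 977 higher genes, 601 kept the call without 21 d library 1. Of all 788 lower genes, 472 kept it without 48 h library 3. Signs reversed for notch1b (-0.12 with equal totals, -0.069 with quantile normalization, -0.086 to 0.44 with a library left out), tgfb3 (-0.090 with equal totals) and twist1b (-0.34 to 0.16 with a library left out), none of which passed. The causes were not tested. Genes near a value of 10 rest on few reads, and a difference there that did not pass does not show equal levels.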

Other observations

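Some genes outside the lists, or outside the themes above, also differed strongly between 21 d and 48 h, and were chosen after their values were seen. The keratin genes krt18 and krt8, of simple epithelia, read 36466, 32113 and 38173, and 105322, 74057 and 85539, at 48 h, and 5107, 6105 and 7508, and 32931, 38251 and 36656, at 21 d (5.76-fold and 2.44-fold lower). The actin gene actb1 fell from 69973, 73421 and 71615 to 22277, 26186 and 24617 (2.95-fold, adjusted p = 2.21e-07), the actin monomer-binding genes tmsb4x and pfn1 fell 2.24-fold and 3.88-fold, and the actin-binding gene cotl1 fell from 1915, 2612 and 3639 to 538, 581 and 834 (4.11-fold). The E-selectin gene sele, whose product lets white cells roll on endothelium, fell from 4421, 5545 and 4539 to 1064, 1179 and 1296 (4.09-fold). None of these 7 genes differed from uninjured tissue at 21 d beyond the threshold (adjusted p = 0.096 to 0.95). Since actb1 is often used as a reference gene, its values in uninjured tissue are given too: 19994, 24203 and 18441.

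In the other direction, the deadenylase gene nocta, known for a daily rhythm, rose from 56, 162 and 183 to 2691, 2959 and 2685 (23.2-fold), the deubiquitinase gene usp2a from 1550, 2024 and 2114 to 10465, 10477 and 10290 (5.54-fold), and the cyclic AMP-responsive factor gene crema from 787, 812 and 1270 to 10659, 7479 and 9036 (9.6-fold). The co-regulator gene cited4a rose from 575, 1000 and 936 to 14806, 11318 and 10670 (14.9-fold), above its uninjured range of 4129 to 7847 (1.04, adjusted p = 0.038). The thyroid hormone receptor gene thraa rose from 80, 137 and 64 to 1131, 980 and 1410 (12.9-fold), the histone demethylase gene kdm6ba 6.32-fold and mibp from 3313, 6853 and 4624 to 29006, 33091 and 29496 (6.46-fold). In every one of these 7 genes the lowest 21 d library was more than 2-fold above the highest 48 h library. The secreted factor gene angptl7 rose from 178, 97 and 462 to 1361, 985 and 1385, below its uninjured values of 4515 to 5074.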
